A study of Homo sapiens with 2 samples.

Results

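The 42 genes described here encode chaperones and folding enzymes of the endoplasmic reticulum (ER), its degradation machinery, its protein translocation channel, and the sensors and transcription factors of the unfolded protein response. They were chosen by gene symbol, by a rule that reads no count, although the list was drawn up with earlier results of these data known. All 42 were found among 24462 distinct symbols. The data are counts of messenger RNA 3' ends in A549, an established human lung adenocarcinoma cell line. There were 2 libraries, 1 of cells given siRNAs against ADGRF4, an adhesion G protein-coupled receptor, and 1 of cells given control siRNAs. Cells of both groups were transfected with siRNA, and the study asked how silencing of this receptor alters gene expression.

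Proteins that enter the secretory pathway pass through the SEC61 channel into the ER, where chaperones, lectins and disulfide isomerases fold them. Misfolded proteins are sent back to the cytosol and degraded. When folding capacity is short, the sensors IRE1 (gene ERN1), PERK (gene EIF2AK3) and ATF6 start the unfolded protein response. IRE1 splices XBP1 mRNA, PERK phosphorylates eIF2alpha and so favours translation of ATF4, and ATF6 is cut to release a transcription factor.

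The ADGRF4 siRNA library held 9825320 counts, with 0.960% on the 42 genes, and the control siRNA library 10396047, with 0.894% on them. ADGRF4 itself had 1 count in the ADGRF4 siRNA library (exact Poisson 95% interval 0.0253 to 5.57) and 3 counts in the control library (0.619 to 8.77), so at this depth a loss of the silenced gene could not be detected. All 6 epithelial markers were detected, with 2 higher (33.3%), 3 lower (50%) and 1 between at the 1.5-fold limit set out below. At that limit, 21.1% of all compared symbols were higher and 22.3% lower. The keratins KRT18 and KRT7 were 1.58-fold and 2.66-fold higher in ADGRF4 siRNA cells, KRT8 and the adhesion molecule EPCAM were 1.56-fold and 1.68-fold lower, and KRT19 had 139 counts with ADGRF4 siRNA and 140 with control siRNA. CDH1, which encodes E-cadherin, had 239 counts with ADGRF4 siRNA and 1218 with control siRNA, 4.34-fold lower (95% counting interval 3.78 to 5.01). Their part in the results below was not tested. CD3E and VWF, markers of T cells and endothelium, had 0 counts in both. Other markers on the same list were counted: ACTA2 had 177 counts with ADGRF4 siRNA and 159 with control siRNA, COL1A1 45 and 50, and CD14 30 and 45. ACTA2 thus had more counts than KRT19 or EPCAM. All 10 markers of other cell types together took 0.00266% of the counts with ADGRF4 siRNA and 0.00251% with control siRNA. With 1 library a group there was no replicate and no test: every difference below is between 2 libraries, its interval covers counting error only, and reads from amplification are not independent molecules. In bulk RNA, fewer cells that express a gene and less RNA per cell cannot be told apart.

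Many genes of this response are switched on through the ER stress response element (ERSE), which ATF6 and XBP1 bind together with the factor NF-Y. Promoter windows from 250 bases before to 50 bases after the transcript start (RefSeq, GRCh38.p14) were found for 39 of the 42 genes. ERSE was searched as CCAAT, then 9 bases of any kind, then CCACG. The related ERSE-II was searched as ATTGG, 1 base of any kind, then CCACG, and both were searched on both strands with no mismatch. ERSE was present in 7 of the 39 genes, against 25 of all 27305 symbols with a window (0.0916%), or 0.0769% of 35116 windows. ERSE-II was present in 3 of the 39, against 19 of 27305 symbols (0.0696%), or 0.0541% of windows. Because the list was made of ER and unfolded protein response genes, these shares describe the list and are not a test of enrichment. The matched elements are shown because they mark the genes that share a known control sequence, whose ratios can then be set side by side. They are written 5′ to 3′ on the strand that carries the element, with 10 bases on each side and the fixed letters of the motif in capitals.
CALR (chr19:12938374-12938412, minus strand): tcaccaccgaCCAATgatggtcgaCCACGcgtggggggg
CANX (chr5:179698768-179698806, plus strand): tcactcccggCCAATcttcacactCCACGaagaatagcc
CRELD2 (chr22:49918544-49918582, minus strand): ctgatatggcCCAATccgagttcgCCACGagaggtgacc
HSP90B1 (chr12:103930206-103930244, plus strand): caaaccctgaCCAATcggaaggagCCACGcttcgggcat
HSP90B1 (chr12:103930311-103930349, minus strand): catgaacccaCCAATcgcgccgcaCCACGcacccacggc
HSPA5 (chr9:125241381-125241419, minus strand): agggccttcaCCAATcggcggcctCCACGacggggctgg
PDIA6 (chr2:10812843-10812881, minus strand): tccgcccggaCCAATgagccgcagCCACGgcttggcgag
XBP1 (chr22:28800593-28800631, minus strand): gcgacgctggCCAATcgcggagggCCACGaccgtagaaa

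The element of HSPA5 lay from position -66 to -48 relative to the transcript start, that of XBP1 from -52 to -34 and that of PDIA6 from -86 to -68. CANX, PDIA6 and XBP1 also have an annotated start whose window held no ERSE. Positions refer to a start whose window held the element, and which start was in use was not examined. CRELD2 carried it on the opposite strand from -80 to -62, and HSP90B1 carried 2 elements, 1 on each strand. The ERSE-II matches were shorter, with the ATTGG and CCACG parts 1 base apart.
HERPUD1 (chr16:56932015-56932045, plus strand): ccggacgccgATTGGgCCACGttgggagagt
HYOU1 (chr11:119057264-119057294, plus strand): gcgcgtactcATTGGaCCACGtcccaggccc
HYOU1 (chr11:119057370-119057400, plus strand): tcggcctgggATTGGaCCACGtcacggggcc
SDF2L1 (chr22:21642104-21642134, minus strand): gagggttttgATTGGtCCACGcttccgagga

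The promoter windows of HSPA5 and CALR are printed whole, with the letters of the exact ERSE match in capitals. They were chosen because both genes carry an ERSE and their counts differed in opposite directions. The element lies on the strand of the gene from -66 to -48 in HSPA5. In CALR it lies on the opposite strand and further from the start, from -225 to -207. Each is read 5′ to 3′ on the strand of its gene.
HSPA5 (chr9:125241294-125241593, minus strand): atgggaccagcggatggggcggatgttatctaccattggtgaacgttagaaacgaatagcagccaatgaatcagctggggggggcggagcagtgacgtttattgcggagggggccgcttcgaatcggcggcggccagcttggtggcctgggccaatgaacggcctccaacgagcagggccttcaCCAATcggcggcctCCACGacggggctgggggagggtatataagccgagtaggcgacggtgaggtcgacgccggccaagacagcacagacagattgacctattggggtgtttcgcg
CALR (chr19:12938359-12938658, plus strand): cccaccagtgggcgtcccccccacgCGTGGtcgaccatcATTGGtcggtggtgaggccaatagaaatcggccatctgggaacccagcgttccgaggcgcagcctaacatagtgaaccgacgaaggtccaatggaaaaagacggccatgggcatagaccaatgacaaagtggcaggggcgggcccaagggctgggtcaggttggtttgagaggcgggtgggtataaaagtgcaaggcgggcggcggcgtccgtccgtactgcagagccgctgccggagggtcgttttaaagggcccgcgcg

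Counts were scaled to library size as CPM, with TMM factors, which correct for a few genes taking a large share of 1 library. The log2 ratio was that of (ADGRF4 siRNA CPM + 1) over (control siRNA CPM + 1), and a gene was counted as higher or lower when this ratio passed 1.5-fold. Folds printed for single genes carry no added 1, and the range after them is the exact 95% counting interval. A mean of at least 30 counts was reached by 40 of the 42 genes. The other two were DERL3, with 33 counts in the ADGRF4 siRNA library and 10 in the control, and ERN1, with 13 counts with ADGRF4 siRNA and 18 with control siRNA.

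Of the 40 genes, 14 were lower in ADGRF4 siRNA cells, 8 were higher and 18 lay between. The lower share was 35%, against 22.3% of all 11771 compared symbols, and the higher share was 20%, against 21.1%. The median log2 ratio of the 40 was -0.42, against -0.016 for all compared symbols, and their log2 ratios spread more widely, with an SD of 0.97 against 0.77. At 2-fold, 12 of the 40 were lower (30%, against 10.4% of all compared symbols) and 3 were higher (7.5%, against 7.84%). Scaling by total counts lowers the median of all compared symbols by 0.14 on the log2 scale, and then gave 20 lower and 4 higher of the 40, beside lower and higher shares of 27.7% and 16.1% over all compared symbols.

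**Figure D1:**
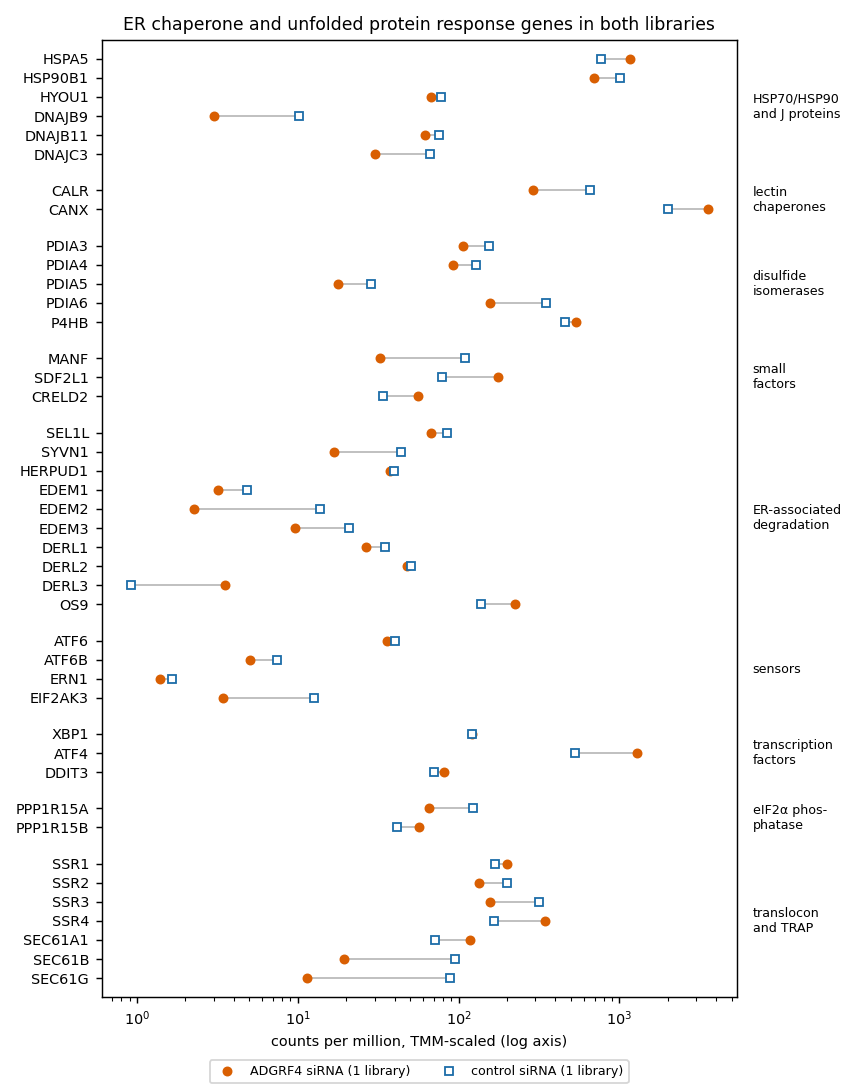
TMM-scaled CPM (log axis) of all 42 genes in the ADGRF4 siRNA library (filled circles) and the control siRNA library (open squares), 1 library each, grouped by role. SEC61G, SEC61B, EDEM2 and MANF lie far to the left in the ADGRF4 siRNA library, whereas ATF4, SDF2L1 and SSR4 lie to the right, and XBP1 lies at the same level in both.

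Chaperones of the HSP70 and HSP90 classes differed in both directions. HSPA5 encodes BiP, the HSP70 of the ER, which also holds the stress sensors inactive. It had 10835 counts in the ADGRF4 siRNA library and 8402 in the control, and was 1.51-fold higher (1.47 to 1.56). HSP90B1, the HSP90 of the ER, had 6437 counts with ADGRF4 siRNA and 10976 with control siRNA, a ratio of 0.688 (0.667 to 0.709). HYOU1, which exchanges the nucleotide of BiP, had 629 counts with ADGRF4 siRNA and 849 with control siRNA, a ratio of 0.869 (0.783 to 0.965). BiP and its HSP90 partner thus lay on opposite sides of equality, with intervals far apart.

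The J-domain proteins that hand clients to BiP were lower or between. DNAJB9, or ERdj4, had 28 counts in the ADGRF4 siRNA library and 112 in the control, 3.41-fold lower (2.24 to 5.36). DNAJC3, or p58IPK, had 283 counts with ADGRF4 siRNA and 729 with control siRNA, 2.20-fold lower (1.91 to 2.53). DNAJB11, or ERdj3, had 578 counts with ADGRF4 siRNA and 827 with control siRNA, a ratio of 0.820 (0.736 to 0.913). DNAJB9 rested on the fewest counts of these, and its interval was the widest.

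The lectin chaperones, which bind the glucose left on immature glycans, were split. CANX encodes calnexin, the membrane-bound form. It had 33026 counts in the ADGRF4 siRNA library and 22031 in the control, 1.76-fold higher (1.73 to 1.79). CALR, its soluble counterpart calreticulin, had 2693 counts with ADGRF4 siRNA and 7212 with control siRNA, 2.28-fold lower (2.18 to 2.39). Both carry an ERSE in the window shown above.

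Disulfide isomerases, which form and rearrange disulfide bonds, gave 2 lower (40%), 0 higher and 3 between among 5. For the whole set of 11771 symbols these shares were 22.3% lower and 21.1% higher. PDIA6 had 1461 counts in the ADGRF4 siRNA library and 3815 in the control, 2.23-fold lower (2.10 to 2.37), and it too shares its locus with a gene of similar counts, described further on. PDIA5 had 165 counts with ADGRF4 siRNA and 312 with control siRNA, 1.61-fold lower (1.33 to 1.96). PDIA3, the partner of calnexin and calreticulin known as ERp57, had 997 counts with ADGRF4 siRNA and 1681 with control siRNA, a ratio of 0.696. PDIA4, or ERp72, had 859 counts with ADGRF4 siRNA and 1404 with control siRNA, a ratio of 0.718. P4HB, the founding isomerase, which is also a subunit of collagen prolyl hydroxylase, had nearly equal counts, 5028 with ADGRF4 siRNA and 5047 with control siRNA, and a ratio of 1.17 (1.12 to 1.22).

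The 3 small luminal factors known to be induced by ER stress did not move together. MANF, a secreted factor that also binds BiP, had 304 counts in the ADGRF4 siRNA library and 1191 in the control, 3.34-fold lower (2.94 to 3.80). SDF2L1, which works with DNAJB11, had 1650 counts with ADGRF4 siRNA and 861 with control siRNA, 2.25-fold higher (2.07 to 2.44). CRELD2, a cysteine-rich protein with isomerase activity, had 521 counts with ADGRF4 siRNA and 370 with control siRNA, 1.65-fold higher (1.44 to 1.89). MANF had no exact match to either element in its window, SDF2L1 had an ERSE-II and CRELD2 an ERSE.

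Among the 9 compared genes of ER-associated degradation, 3 were lower (33.3%), 1 was higher (11.1%) and 5 lay between. Over the full set of 11771 symbols, the lower share was 22.3% and the higher share 21.1%. EDEM2, which starts the mannose trimming that marks a glycoprotein for disposal, had 21 counts in the ADGRF4 siRNA library and 151 in the control, 6.13-fold lower (3.87 to 10.2). EDEM3, which trims further, had 90 counts with ADGRF4 siRNA and 229 with control siRNA, 2.17-fold lower (1.69 to 2.80). EDEM1 had 30 counts with ADGRF4 siRNA and 53 with control siRNA, a ratio of 0.664 whose interval of 0.410 to 1.06 includes equality.

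SYVN1 (HRD1), with its partner SEL1L, is the ubiquitin ligase that marks these clients for the proteasome. SYVN1 had 157 counts in the ADGRF4 siRNA library and 481 in the control, 2.61-fold lower (2.18 to 3.15), although an overlapping gene described further on had similar counts. SEL1L had 627 counts with ADGRF4 siRNA and 923 with control siRNA, a ratio of 0.797 (0.719 to 0.883). OS9, the lectin that delivers trimmed glycoproteins to SEL1L, had 2090 counts with ADGRF4 siRNA and 1513 with control siRNA, 1.62-fold higher (1.52 to 1.73). Genes of this 1 disposal route lay on both sides of equality.

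HERPUD1, an adaptor of the same ligase, had 350 counts in the ADGRF4 siRNA library and 435 in the control, a ratio of 0.944 (0.818 to 1.09). Of the derlins, which help clients cross the membrane, DERL1 had 247 counts with ADGRF4 siRNA and 379 with control siRNA, a ratio of 0.764, and DERL2 had 443 with ADGRF4 siRNA and 556 with control siRNA, a ratio of 0.935. DERL3, below the count limit, had 33 counts with ADGRF4 siRNA and 10 with control siRNA, a ratio of 3.87 with a wide interval of 1.86 to 8.81.

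Of the sensors, EIF2AK3 stood apart. It had 32 counts in the ADGRF4 siRNA library and 138 in the control, 3.68-fold lower (2.49 to 5.58). ATF6 had 336 counts with ADGRF4 siRNA and 441 with control siRNA, a ratio of 0.894 (0.773 to 1.03), and its relative ATF6B had 47 with ADGRF4 siRNA and 81 with control siRNA, a ratio of 0.681 (0.465 to 0.987). ERN1 was too sparse to compare, with a ratio of 0.847 and an interval of 0.382 to 1.83. ATF6B was listed on 4 rows, of which 1 held all its counts.

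ATF4 had the highest ratio among the 40 genes. It had 12038 counts in the ADGRF4 siRNA library and 5767 in the control, 2.45-fold higher (2.37 to 2.53), and its log2 ratio exceeded that of 97.3% of all compared symbols. DDIT3 encodes CHOP, a transcription factor downstream of ATF4. It had 759 counts with ADGRF4 siRNA and 772 with control siRNA, a ratio of 1.15 (1.04 to 1.28). XBP1 had 1138 counts with ADGRF4 siRNA and 1325 with control siRNA, a ratio of 1.01 (0.930 to 1.09). Counts of 3' ends do not separate spliced from unspliced XBP1 mRNA, and ATF4 and XBP1 are also controlled after transcription, so these counts do not measure the activity of either factor.

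PPP1R15A (GADD34), the inducible cofactor that directs a phosphatase to eIF2alpha, had 612 counts in the ADGRF4 siRNA library and 1348 in the control, 1.88-fold lower (1.71 to 2.07). PPP1R15B (CReP), the constitutive cofactor, had 529 counts with ADGRF4 siRNA and 453 with control siRNA, a ratio of 1.37 (1.21 to 1.56). The 2 cofactors thus differed in opposite directions.

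The translocation machinery held both high and low ratios, with log2 ratios from -2.85 to 1.06 over 7 genes. SEC61 is a channel of 3 subunits, and the small subunits had 2 of the 3 lowest ratios among the 40 genes. SEC61G, the gamma subunit, had 107 counts in the ADGRF4 siRNA library and 973 in the control, 7.75-fold lower (6.34 to 9.56). SEC61B, the beta subunit, had 182 counts with ADGRF4 siRNA and 1038 with control siRNA, 4.86-fold lower (4.15 to 5.72). SEC61A1, the pore-forming alpha subunit, had 1097 counts with ADGRF4 siRNA and 782 with control siRNA, 1.65-fold higher (1.4999 to 1.81). Of all compared symbols, 0.263% had a lower log2 ratio than SEC61G and 0.816% a lower one than SEC61B.

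The translocon-associated protein (TRAP) complex, which assists some signal sequences, has 4 subunits encoded by SSR1 to SSR4. SSR4 had 3231 counts in the ADGRF4 siRNA library and 1808 in the control, 2.10-fold higher (1.98 to 2.22). SSR3 had 1459 counts with ADGRF4 siRNA and 3463 with control siRNA, 2.02-fold lower (1.90 to 2.15). SSR2 had 1250 counts with ADGRF4 siRNA and 2196 with control siRNA, a ratio of 0.668 (0.622 to 0.716), and SSR1 had 1865 with ADGRF4 siRNA and 1834 with control siRNA, a ratio of 1.19 (1.12 to 1.27). No pair of these 4 intervals overlapped, although the subunits belong to 1 complex.

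**Figure D2:**
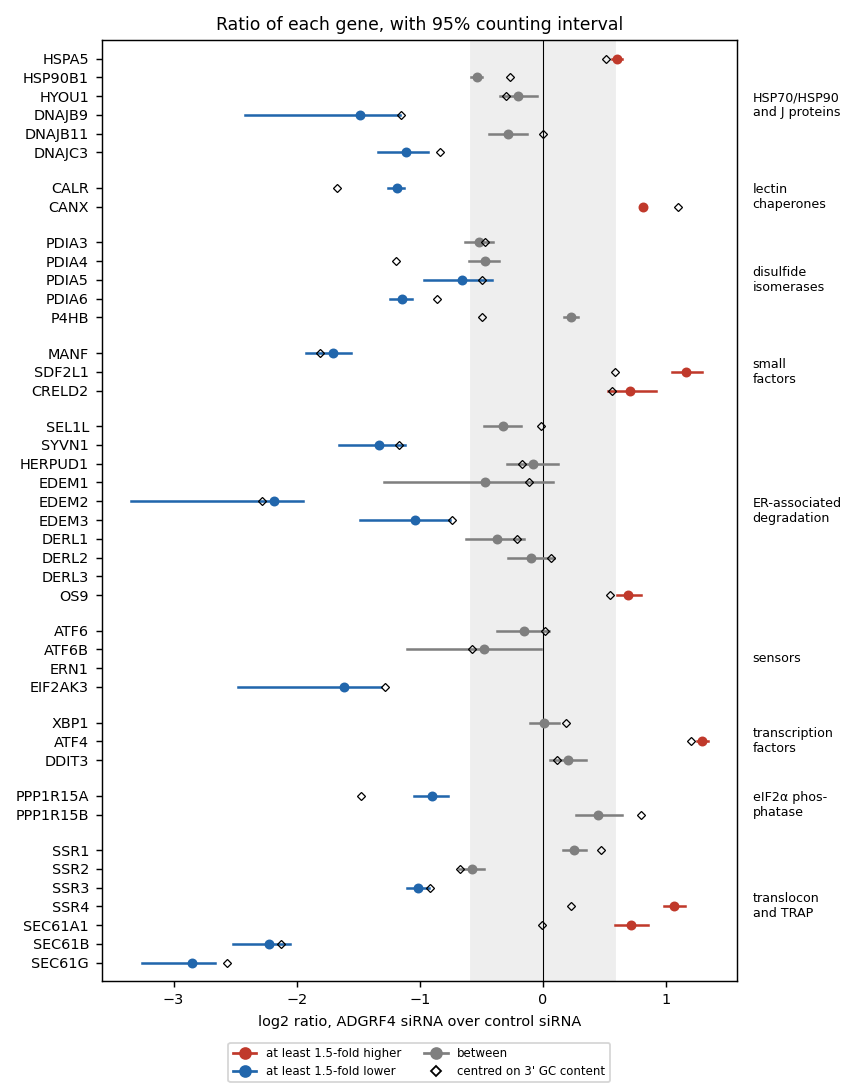
Log2 ratio of ADGRF4 siRNA over control siRNA for the 40 compared genes, with the 95% counting interval as a line, coloured by whether the gene passed 1.5-fold (grey band). Open diamonds give the ratio after centring on 3' GC content: SEC61G, SEC61B, EDEM2, MANF and CALR stay far below 0, whereas SSR4 and SEC61A1 move to 0.22 and -0.0097.

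The ratios in these libraries followed the base composition of the 3' end. GC content was taken over the last 300 bases of the longest transcript (GENCODE 29), and the median log2 ratio of all compared symbols ran from -0.35 in the 1114 symbols with the lowest GC content to 0.78 in the 1114 with the highest. Over the 40 genes, Spearman's rho between log2 ratio and 3' GC content was 0.38, beside 0.46 over 11139 symbols, as a description of genes that share the same 2 libraries. The 8 higher genes had a median 3' GC content of 49.3%, the 14 lower genes 39.5% and the 18 between 39.3%.

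In the 3713 symbols with the highest GC content, 6 of 11 genes were higher and 2 lower, where 44.4% of all symbols were higher and 9.99% lower. The 2 lower genes there were CALR (55.0% GC) and PPP1R15A (56.7% GC). In the 3713 with the lowest, 5 of 10 were lower and 0 higher, where 32.3% of all symbols were lower and 5.41% higher. In the 3713 between these, 7 of 19 were lower and 2 higher, where 25.0% were lower and 13.2% higher. CANX, at 35.3% GC, and HSPA5, at 46.7% GC, were the 2 higher genes of this middle group.

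When each ratio was centred on the median of symbols with like 3' GC content, 15 of the 40 genes were lower (37.5%, against 19.1% of all symbols) and 3 were higher (7.5%, against 15.2%). Of the 14 lower genes, 13 kept that place, and PDIA5 did not (log2 ratio -0.50). Of the 8 higher genes, ATF4 (1.20) and CANX (1.10) kept it. SDF2L1 (0.58), CRELD2 (0.56), OS9 (0.54) and HSPA5 (0.51) came just under 1.5-fold, SSR4 lay at 0.22 and SEC61A1 at -0.0097. PDIA4 (-1.19) and SSR2 (-0.68) joined the lower genes, and PPP1R15B (0.80) the higher ones. CALR was further below after centring, at -1.67 against -1.19 before.

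**Figure D3:**
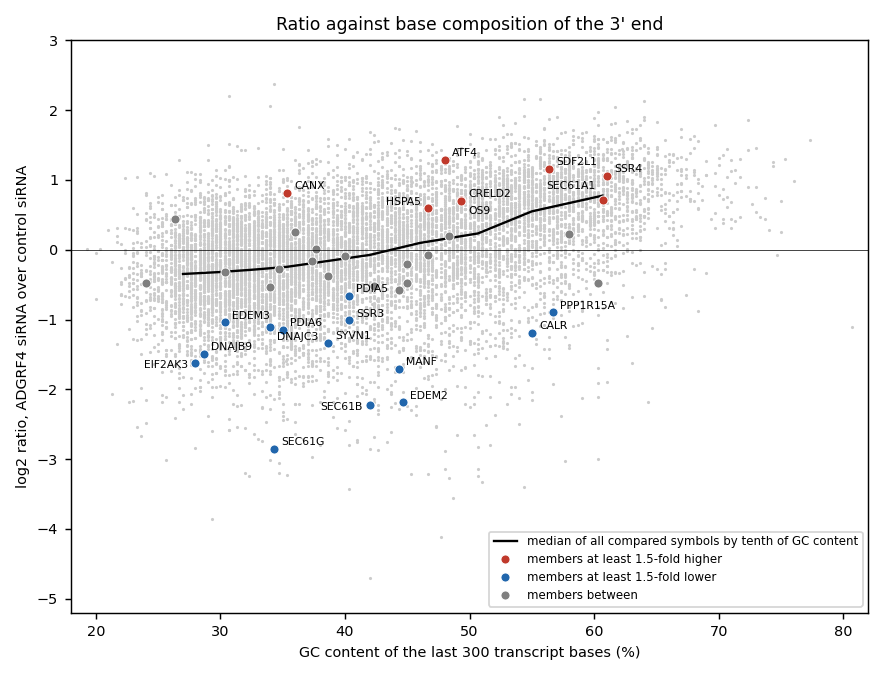
Log2 ratio against GC content (%) of the last 300 transcript bases for all compared symbols (grey dots), with their median in 10 groups of rising GC content (line) and the 40 genes in colour. CALR, PPP1R15A, MANF, EDEM2, SEC61B and SEC61G lie well below the line at their GC content, and CANX and ATF4 well above it.

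The 10 genes with an ERSE or ERSE-II gave 4 higher, 2 lower and 4 between, with log2 ratios from -1.19 to 1.16 and a median of -0.035. The higher ones were HSPA5, CANX, CRELD2 and SDF2L1, the lower ones CALR and PDIA6, and those between HSP90B1, HYOU1, HERPUD1 and XBP1. The 28 compared genes whose windows held no exact match to either element gave 4 higher, 12 lower and 12 between, with a median of -0.48. Of those with an element 40% were higher and 20% lower, and of those without 14.3% were higher and 42.9% lower, beside 21.1% and 22.3% of all compared symbols. After centring on 3' GC content the genes with an element gave 1 higher (CANX) and 2 lower, with a median of 0.0090. Those without gave 2 higher and 13 lower, with a median of -0.54. Of all symbols, 15.2% were higher and 19.1% lower after centring. The difference between these groups was not tested, and a match of letters does not show that a factor bound there. Because no mismatch was allowed, a window without a match is not shown to lack such an element.

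Further motifs, each found in more symbols than ERSE or ERSE-II, were searched in the same windows. The unfolded protein response element, searched as TGACGTGG on both strands (0.729% of all windows), was present in 3 of the 39 genes, against 0.927% of all symbols. These were SSR3, SSR4 and HYOU1, and in HYOU1 it overlaps an ERSE-II. The 2 TRAP subunits with this motif were the 1 higher and the 1 lower subunit of that complex. Both SSR3 and SSR4 also have an annotated start whose window lacked it. The element bound by ATF4 with C/EBP factors was searched as TGATGNAA on both strands (3.62% of windows). It was present in 2 of the 39 genes, PPP1R15B and HERPUD1, against 4.46% of all symbols.

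Exons of 22 of the 42 genes are overlapped on the other strand by another annotated gene in GENCODE 29, and the strand setting of the counting is not given in the sources used here. Without strand, the reads of such a pair cannot be told apart where the exons overlap. Overlap at any exon was counted, whereas these libraries read 3' ends. Whether an overlap reaches the 3' end that was read was not examined, and the share over all genes was not taken. These genes include 5 of the 8 higher ones (CANX, CRELD2, OS9, SEC61A1 and SSR4) and 5 of the 14 lower ones (CALR, DNAJB9, EIF2AK3, PDIA6 and SYVN1). The counts of 2 lower genes were close to those of the gene across from them. ATP6V1C2, a proton pump subunit gene across from PDIA6, had 1261 counts with ADGRF4 siRNA and 3593 with control siRNA, and a log2 ratio of -1.27 beside -1.15 for PDIA6. MRPL49, a mitochondrial ribosomal protein gene across from SYVN1, had 169 counts with ADGRF4 siRNA and 464 with control siRNA, and a log2 ratio of -1.18 beside -1.33 for SYVN1. The lower counts of PDIA6 and SYVN1 are therefore uncertain as to the gene they come from. Exons of SYVN1 and PDIA5 are also overlapped on their own strand, where strand does not separate the reads. FAU, which overlaps SYVN1, had 11109 counts with ADGRF4 siRNA and 16022 with control siRNA, and a log2 ratio of -0.30. SEC22A, which overlaps PDIA5, had 48 and 87 counts, and a log2 ratio of -0.54 beside -0.66 for PDIA5.

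Other called genes stood further from their neighbours. IDH3G, across from SSR4, was also higher, with 734 counts with ADGRF4 siRNA and 553 with control siRNA, and a log2 ratio of 0.63. RUVBL1, across from SEC61A1, had a log2 ratio of -0.40, and ALG12, across from CRELD2, one of -0.12. PNPLA8 and THAP5, across from DNAJB9, had -0.22 and -0.48, and CBY3, across from CANX, had 0 counts in both libraries. The genes across from CALR, EIF2AK3 and OS9 were not analysed here. SEC61B, SEC61G, MANF, EDEM2, ATF4, HSPA5 and SDF2L1 have no such overlap. Named processed pseudogenes, which can share reads with their parent, exist for 5 of the genes: 4 for ATF4, 2 for SSR1 and 1 each for PDIA3, SSR4 and XBP1.

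Other genes of the same pathway were taken from 10 lists. Of the 145 compared, 38 were lower, 18 higher and 89 between, with a median log2 ratio of -0.18. The lower share was 26.2% and the higher share 12.4%, beside 22.3% and 21.1% of all compared symbols. The machinery that delivers proteins to SEC61 and cuts their signal sequences gave 8 lower (47.1%) and 0 higher among 17. TRAM1, a membrane protein beside the channel, had 398 counts in the ADGRF4 siRNA library and 1583 in the control, 3.39-fold lower (3.04 to 3.79). SEC62, which works with the channel after translation, had 1087 counts with ADGRF4 siRNA and 3377 with control siRNA, 2.65-fold lower (2.47 to 2.84). SRP9, of the signal recognition particle, was 3.20-fold lower and SRPR, a subunit of its receptor, 2.94-fold lower. The median of this list was -0.48, and its 3' ends were AT-rich, with a median of 34.0% GC. A 3' GC content was found for 16 of the 17, and not for SRPR, which was left out of the centring. Of these 16, 7 were lower and 1 higher after centring.

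The oligosaccharyltransferase, which attaches glycans as proteins emerge from the channel, gave 5 lower (45.5%) and 1 higher (9.09%) among 11. OST4 had 498 counts in the ADGRF4 siRNA library and 1429 in the control, 2.45-fold lower (2.21 to 2.71). DDOST was 2.38-fold, DAD1 2.02-fold and RPN1 1.77-fold lower. The median was -0.51, and -0.45 after centring, when 4 were lower and 1 higher.

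Of 15 further oxidation and disulfide isomerase genes, 5 were lower (33.3%) and 1 higher (6.67%), with a median 3' GC content of 35.3%. Their median log2 ratio was -0.18, and 0.0 after centring, when 5 were lower and 2 higher. TXNDC5 had 174 counts with ADGRF4 siRNA and 726 with control siRNA, 3.56-fold lower (3.01 to 4.22), TXNDC11 was 3.18-fold, TXNDC12 2.53-fold and TMX1 2.18-fold lower. Of 12 genes for HSP70 nucleotide exchange, prolyl isomerases and J-domain proteins, 4 were lower (33.3%) and 1 higher (8.33%). Their median was -0.24, and -0.023 after centring, when 3 were lower and 1 higher. SDF2, the paralog of SDF2L1, had 68 counts with ADGRF4 siRNA and 309 with control siRNA, 3.87-fold lower (2.97 to 5.11). SIL1, a nucleotide exchange factor of BiP, had 679 counts with ADGRF4 siRNA and 344 with control siRNA, 2.32-fold higher (2.03 to 2.64). The prolyl isomerases FKBP11 and FKBP2 were 2.66-fold and 1.83-fold lower. SDF2 and SDF2L1 thus lay on opposite sides of equality.

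Glycan trimming and calnexin cycle genes gave 1 lower (9.09%) and 2 higher (18.2%) among 11. PRKCSH, the beta subunit of glucosidase II, was 2.29-fold higher (2.05 to 2.55) and the cargo lectin LMAN2 1.69-fold higher, whereas MOGS, glucosidase I, was 1.75-fold lower and UGGT2 had a ratio of 0.676. Centring left log2 ratios of 0.34 for PRKCSH and 0.032 for LMAN2. Further degradation genes gave 4 lower (16%) and 6 higher (24%) among 25. UBXN6 and AUP1 were 2.14-fold and 2.12-fold higher, and UBXN4 was 1.94-fold lower. UBXN6 and AUP1 had 3' GC contents of 58.0% and 56.3%, and centring left 0.36 and 0.50.

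Of 20 known targets of ATF4 and CHOP, 5 were higher (25%), 4 lower (20%) and 11 between, shares close to the 21.1% and 22.3% of all compared symbols, with a median of 0.0020, and -0.17 after centring. SESN2, a stress-induced sestrin, had 1005 counts in the ADGRF4 siRNA library and 468 in the control, 2.52-fold higher (2.26 to 2.82). ASNS, asparagine synthetase, had 1423 counts with ADGRF4 siRNA and 869 with control siRNA, 1.92-fold higher (1.76 to 2.09). TRIB3, CHAC1 and NUPR1 complete the 5 higher genes. VLDLR was 2.59-fold lower (1.66 to 4.16) and CEBPG 1.88-fold lower (1.56 to 2.28). TNFRSF10B and PSAT1, with log2 ratios of -0.66 and -0.64, complete the 4 lower genes. The genes that complete each group were chosen for naming after their values were seen. After centring, 3 of the 20 were higher and 3 lower, where 15.2% of all symbols were higher and 19.1% lower.

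Of 9 genes for ATF6 processing and related factors, 1 was higher (11.1%) and 2 lower (22.2%). NUCB1, a calcium-binding Golgi protein, had 5720 counts with ADGRF4 siRNA and 2194 with control siRNA, 3.06-fold higher (2.91 to 3.21), and its log2 ratio was 1.03 after centring. Its paralog NUCB2 was 1.70-fold lower and CREB3L2 1.73-fold lower, and CREB3L4 had a ratio of 1.33.

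**Figure D4:**
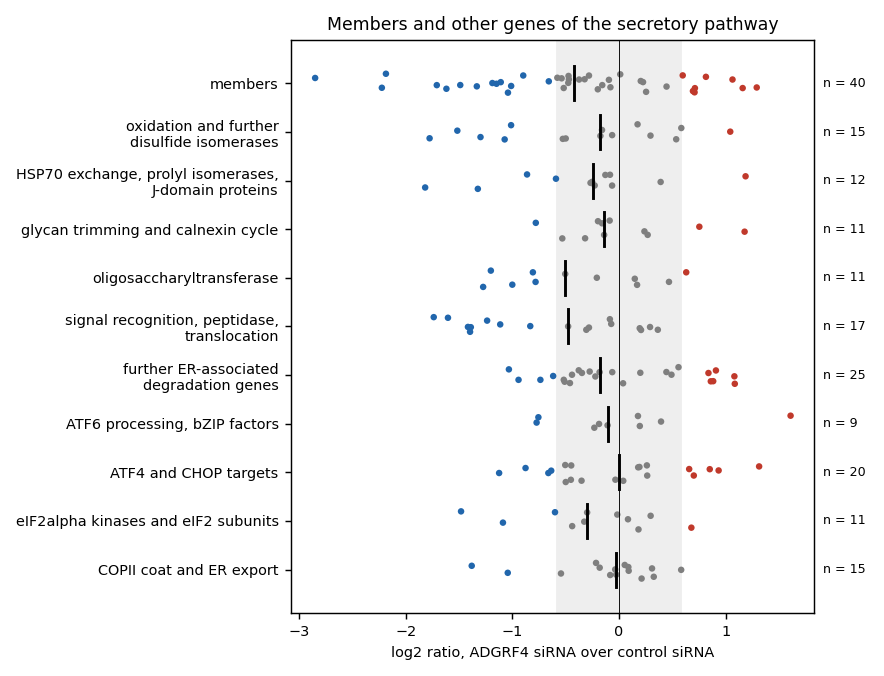
Log2 ratio of ADGRF4 siRNA over control siRNA for the 40 members and for the compared genes of 10 further lists (1 point per gene, black bar at the median, grey band within 1.5-fold, n at the right). The signal recognition list has 8 genes below the band and 0 above it, and the ATF4 and CHOP targets are spread on both sides of 0.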

How the data were processed

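RNA of A549 cells was read from 3' ends with the Lexogen QuantSeq kit, per the labels' protocols. The deposited values are raw counts, whole numbers listed by gene symbol. Bowtie2, edgeR and build hg19 were named, per the submitters' processing notes; their roles and versions, the annotation, and the strand and multi-mapping settings are not stated there. The files held 25737 rows and 24462 symbols. Rows of 1 symbol were summed (286 symbols, 1 of them a member), and 0 rows lacked a name.

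TMM factors came from edgeR 4.0.16 under R 4.3.3. Ratios used a pseudocount of 1 CPM and a minimum mean of 30 counts, which left 11771 symbols. Intervals are exact Clopper-Pearson or Poisson 95% intervals and cover counting error only. With 1 library per group no test was made. A 3' GC content was found for 11139 symbols (94.6%), and centring used 20 bins. Promoters are RefSeq windows (GRCh38.p14), searched by script. The ratio and interval calculation was tested on simulated data. Python 3.11.15, numpy 2.4.6, pandas 2.3.3, scipy 1.17.1 and matplotlib 3.10.9 were used.

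All members are named, with up to 4 genes of the largest absolute log2 ratio from each of 10 other lists. The remaining called genes among the ATF4 and CHOP targets are named as well. Some genes of the fixed lists stand in the counts and are not reported by name here. Members and lists were chosen with earlier results of these data known. The alternatives tried were scaling by total counts, by DESeq2 1.42.0 and by upper quartiles, other pseudocounts (0.1 and 5), count limits (10, 100 and none), a 2-fold threshold, centring on 3' GC content, and thinning of the control library.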

Additional observations from a re-analysis of the deposited data

How the results depend on the processing

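No paired analysis was possible because each group holds 1 library, and no library could be left out. The 14 lower genes became 11 to 20 over all alternatives, within 1.5 times, while the lower share of all compared symbols ran from 10.4% to 27.7%. The 11 were among 35 genes at a limit of 100 counts, where 20.2% of all symbols were lower. The 20 were among 40 genes under total-count scaling, where 27.7% were lower. The 8 higher genes, beside 21.1% of all compared symbols, became 4 under total-count scaling, beside 16.1%. They became 3 after centring on 3' GC content, beside 15.2%, and 3 at a 2-fold threshold, beside 7.84%. Of the 40 genes, 30 kept their place under total-count scaling and 30 under centring. All 40 did under DESeq2 size factors, and 38 under upper-quartile scaling, where HSPA5 and SSR2 crossed the 1.5-fold limit. The log2 ratio of SEC61A1 turned to -0.0097 after centring, and no other called member changed sign under the alternatives run. The median log2 ratio lay between -0.55 (total-count scaling) and -0.28 (a limit of 100 counts, and centring). The cause of these shifts was not tested. Genes under about 50 counts in a library, such as EDEM2, DNAJB9 and EIF2AK3, have wide counting intervals, and without replicates the spread between cultures is unknown.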

Other observations

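Genes at the edges of the pathway were also read. Of 15 genes of the COPII coat and of ER export, 2 were lower (13.3%), 0 higher and 13 between, against 22.3% lower and 21.1% higher among all compared symbols, with a median log2 ratio of -0.027. In ADGRF4 siRNA cells the coat subunit SEC24C was 2.76-fold lower (2.19 to 3.52), and SEC23A was 2.11-fold lower (1.79 to 2.49). SAR1A, the GTPase that starts coat assembly, had 1134 counts in the ADGRF4 siRNA library and 885 in the control, a ratio of 1.503 (1.38 to 1.64), and SEC24B had 59 counts with ADGRF4 siRNA and 106 with control siRNA, a ratio of 0.653. After centring on 3' GC content, 3 of the 15 were lower and 1 higher, beside 19.1% and 15.2% of all symbols. SAR1A then had a log2 ratio of 0.80 and SEC24B one of -1.03, both past 1.5-fold. Of 11 eIF2alpha kinases and subunits of eIF2 and its exchange factor, 3 were lower (27.3%) and 1 higher (9.09%). EIF2B1, of the exchange factor, was 3.03-fold lower (2.32 to 4.01), the RNA-sensing kinase EIF2AK2 2.16-fold lower (1.89 to 2.48) and the heme-regulated kinase EIF2AK1 1.52-fold lower (1.42 to 1.62), whereas EIF2B4 was 1.62-fold higher (1.39 to 1.89). After centring, 2 of these 11 were lower and 0 higher. EIF2AK1 then had a log2 ratio of -0.44 and EIF2B4 one of 0.58, both within 1.5-fold.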
